A study of Rattus norvegicus with 12 samples.

Results

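Potassium channels and the subunits of the ATP-sensitive potassium (KATP) channel were followed in CRI-G1-RS and CRI-G1-RR cells. The members were taken by name: every probe set whose annotation gives a single gene symbol that starts with Kcn, or that is Abcc8 or Abcc9. The rule used no measured value. It found 130 probe sets for 77 genes, out of 20832 probe sets with a single symbol for 14218 genes. A probe set is a group of short oligonucleotides on the array that reports 1 transcript region, and 45 of the 77 genes had 1 of them and 32 had several.

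The CRI-G1 line was derived from a rat islet tumour and secretes insulin. CRI-G1-RS cells (RS cells) are the rotenone-sensitive line, a single subclone isolated from the parental culture after cells had changed spontaneously in growth form. CRI-G1-RR cells (RR cells) are the rotenone-resistant parental clone, and rotenone is an inhibitor of mitochondrial complex I. Both lines were untreated and grown in the same high-glucose medium with serum, and 6 RS samples and 6 RR samples, collected in pairs over different passages, were each hybridised to 1 Affymetrix rat expression array. Since RS cells are 1 subclone, differences between the lines are differences between that subclone and its parent, and the arrays of a line are passages of the same cells.

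Potassium channels set the resting potential of an insulin-secreting cell and end its action potentials. In a beta cell the KATP channel is open at low glucose; ATP made from glucose closes it, the membrane depolarises, calcium channels open and insulin is released. Voltage-gated and calcium-activated potassium channels then repolarise the membrane, while background and inwardly rectifying channels hold it near rest. A working KATP channel needs a pore subunit of the inward rectifier family and a sulfonylurea receptor of the ABC transporter family.

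The values are linear signals, scaled by the authors to a common level: the mean after trimming 2% was between 250.068 and 250.075 on the 12 arrays. Within RS cells the arrays correlated at 0.979 to 0.987, within RR cells at 0.980 to 0.987, and across the lines at 0.952 to 0.965. Of the beta cell markers looked up, Ins1 was bright in both lines (6495 ± 978 in RS cells and 7118 ± 309 in RR cells, SD, n = 6 each), but the glucose transporter Slc2a2 was near the floor of the array (1.64 ± 0.324 in RS cells and 9.70 ± 7.55 in RR cells). Of 7 beta cell markers measured (10 were listed), 4 were higher and 1 was lower in RS cells (over all genes 21% were higher and 18.3% lower), and their summed signal was 12654 to 15548 in RS cells and 10616 to 11875 in RR cells. Markers of other islet and gut endocrine cells summed to 7059 to 8613 in RS cells and 9809 to 11727 in RR cells, with 1 of 7 higher and 2 lower. The secretin gene Sct was lower, with means of 57.0 in RS cells and 1658 in RR cells (log2 fold change -4.50). Cck was lower too (-0.49) and Ghrl was higher (0.91). The glucagon gene Gcg was bright in both lines and not called. Such sums are weighted to the brightest gene of a list, here Ins1 and Gcg, and Ins1 was not called either. Acinar markers summed to 50.7 to 109.9 in RS cells and 83.6 to 123.7 in RR cells, fibroblast markers to 175.5 to 222 in RS cells and 166 to 207 in RR cells, and none of the 5 of either kind was called. No marker was at exactly 0. The part of these marker differences in the potassium channel results was not tested, and in RNA from whole cultures fewer cells that express a gene and less RNA per cell cannot be told apart.

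The RR arrays were not alike in every gene, and in part of the genes RR replicates 1, 2 and 3 stood apart from RR replicates 4, 5 and 6. In 15.9% of all genes the signals of these RR arrays did not overlap, against 10.7% for RS replicates 1, 2 and 3 set beside RS replicates 4, 5 and 6. Among the beta cell markers this held for 5 of 7 in RR cells (Iapp, Ins2, Mafa, Nkx6-1 and Pdx1) and for 2 in RS cells. Mafa, a transcription factor of mature beta cells, had signals of 555, 498 and 590.5 in RR replicates 1, 2 and 3 and 283, 296 and 337 in RR replicates 4, 5 and 6; Ins2 had 860.0, 778 and 1041 and 543, 541 and 571 in the same order. Of the potassium channel genes, 10 of 77 were split in this way in RR cells and 9 in RS cells, and the 10 include 5 that were called between the lines (Kcnd2, Kcnh3, Kcnh6, Kcnip2 and Kcnma1). With RR replicates 1 to 3 alone against all RS arrays, 13 potassium channel genes were higher and 3 lower, and with RR replicates 4 to 6 alone 12 were higher and 3 lower, where all arrays gave 16 and 3; 15 and 14 of the 19 calls remained. The called share of all probe sets was 24.4% and 25.8% in the same order, against 31.7% with all arrays. Whether RR replicates 1 to 3 or RR replicates 4 to 6 share a technical step was not tested.

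Each gene was represented by its brightest probe set. Of the 77 genes, 16 were higher in RS cells, 3 were lower and 58 were not called. A gene was called at an adjusted p under 0.05 in a limma fit over all 31099 probe sets, and its log2 fold change, RS over RR, is on the log2(signal + 16) scale, which understates the change of genes with low signals. The called share was 24.7% of the potassium channel genes; over all 14218 genes 39.2% were called, 21% higher and 18.3% lower in RS cells. At a 2-fold change or more on this scale, 3 genes were higher (Kcnk3, Kcnh2 and Kcnip2) and 1 was lower (Kcnq1). The background was 4.85% of all genes (2.36% higher and 2.49% lower). Other called genes, dim in RR cells, had a ratio of mean signals, RS over RR, above 2. They were Kcnd2 (2.15), Kcns3 (2.27), Kcnmb1 (2.43), Kcnk12 (2.74) and Kcnb2 (2.89), picked by that ratio. The share of all genes with such a ratio was not computed. In 11 of the 77 genes the signals of the lines did not overlap, 9 with RS cells above and 2 with RS cells below; over all genes this was 27.2% (14.6% above and 12.6% below). The median log2 fold change was 0.07 over the potassium channel genes and 0.02 over all genes.

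Many of these genes were dim. A mean signal of at least 50 was found for 35 of them, of which 9 were higher and 3 lower (34.3% called, against 50.1% of all genes at that signal). Of the other 42, 7 were higher and none lower (16.7% called, against 9.99% of all genes under that signal). The median coefficient of variation over the arrays of a line was 15.97% in RS cells and 17.2% in RR cells for the brighter genes, and 36.3% in RS cells and 40.4% in RR cells for the dimmer ones. Counted over all 130 probe sets, 22 were higher and 7 lower, which is 22.3% against 31.7% of all probe sets on the array.

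**Figure D1:**
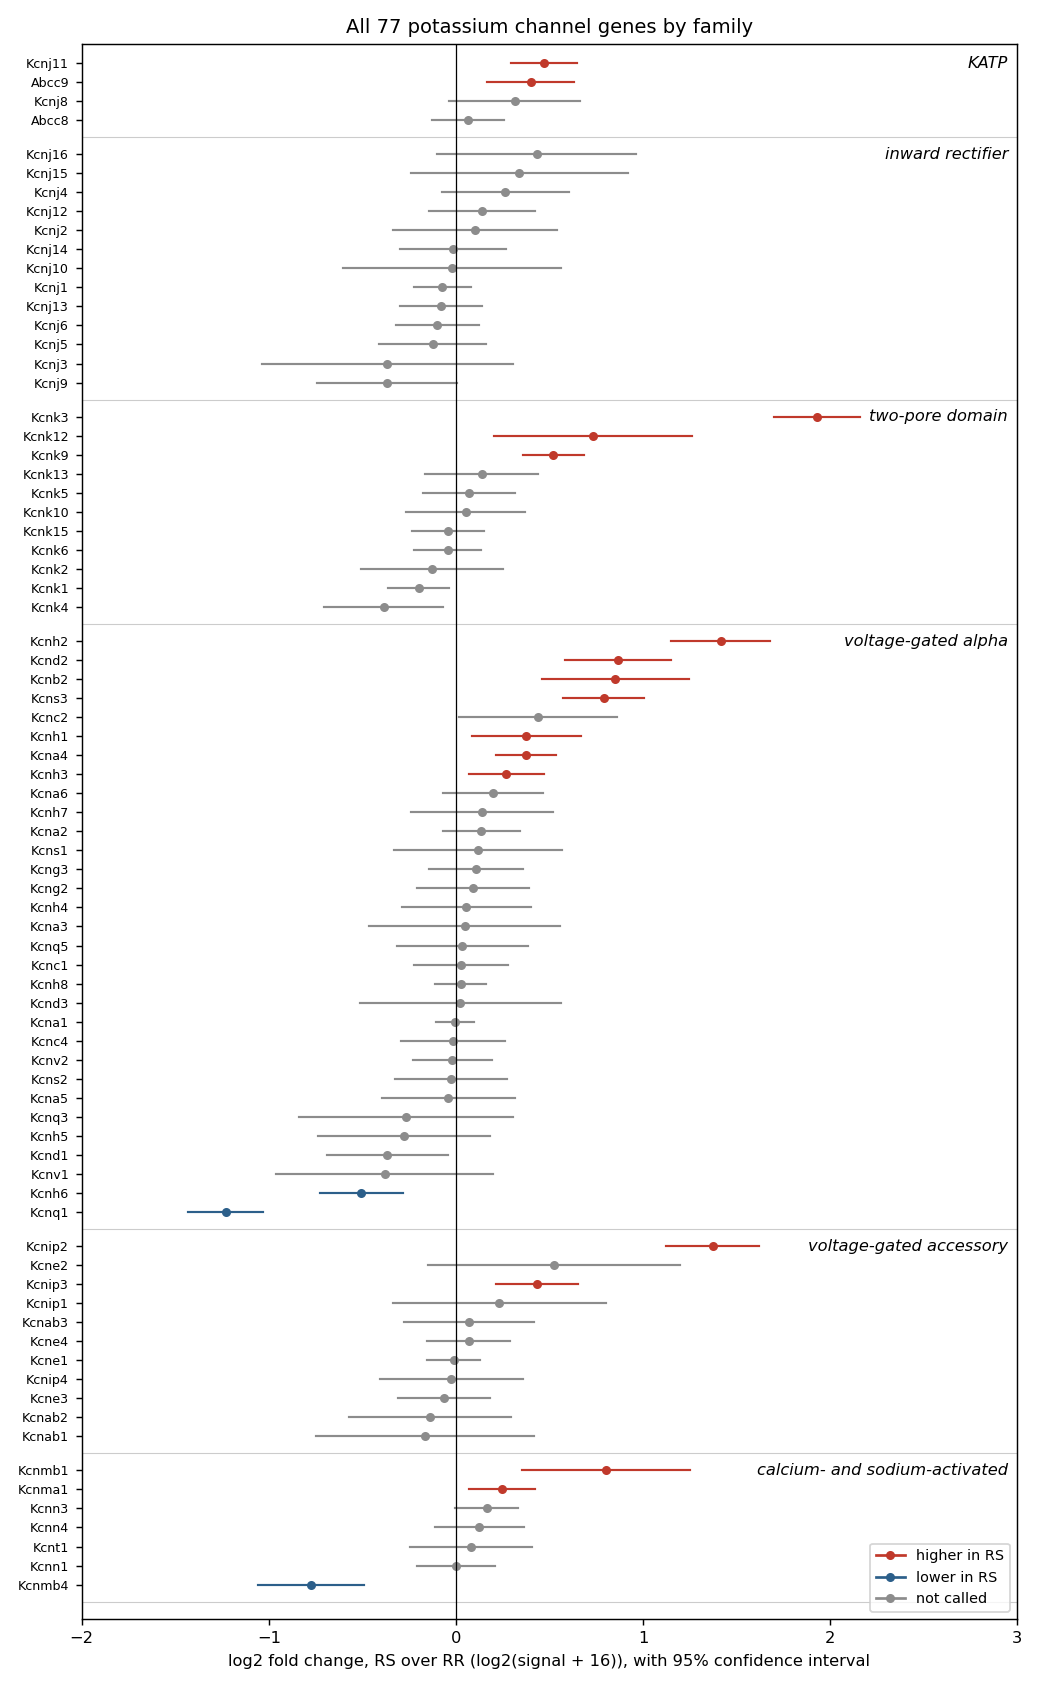
Log2 fold change (RS over RR, horizontal axis) of the 77 potassium channel genes, each by its representative probe set, grouped by channel family; points are the limma estimates and bars their 95% confidence intervals. Red genes were higher in RS cells (16), blue genes lower (3) and grey genes not called (58); none of the 13 inward rectifiers outside the KATP channel is coloured.

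Among the 4 KATP subunit genes, Kcnj11 and Abcc9 were higher in RS cells, and Abcc8 and Kcnj8 were not called. Kcnj11 encodes Kir6.2, the pore of the beta cell KATP channel. Signals given as 3 values are the lowest, the median and the highest of the 6 arrays of a line. The representative probe set of Kcnj11 (1391007_s_at) had signals of 645, 734 and 828 in RS cells, against 473, 521 and 598 in RR cells. Every RS array was above every RR array. The means were 736 ± 58.1 in RS cells and 523 ± 49.6 in RR cells (SD, n = 6 each), a log2 fold change of 0.47 (95% confidence interval 0.30 to 0.65, adjusted p = 4.25e-04). An exact two-sided permutation test of 6 arrays against 6 gave p = 0.00216, the smallest that this design allows.

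Kcnj11 has 2 further probe sets. In the set 1387698_at the signals were 269.8, 303 and 431 in RS cells and 176, 186 and 237 in RR cells, again without overlap (log2 fold change 0.65, adjusted p = 3.81e-04). In the set 1369782_a_at they were 85.8, 106 and 122 in RS cells and 76.7, 94.2 and 102 in RR cells, which overlapped, and this set was not called (log2 fold change 0.15, interval -0.03 to 0.32, adjusted p = 0.190). The size of the Kcnj11 difference thus varied with the probe set, and all 3 sets had a positive value. The ending _s_at marks a probe set that can match more than 1 transcript; with such sets left out, the representative set of Kcnj11 is the one with the log2 fold change of 0.65.

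Abcc8 encodes the sulfonylurea receptor SUR1, the partner of Kir6.2 in beta cells. Its signals were 841, 929.9 and 1233 in RS cells, against 863, 919.9 and 956 in RR cells. The lines overlapped, and RS replicate 2 lay apart at 1233, where the other RS arrays were at or under 940.0. The means were 964 ± 137 in RS cells and 914 ± 33.5 in RR cells (SD, n = 6 each), a log2 fold change of 0.07 (interval -0.13 to 0.26, adjusted p = 0.641). Without RS replicate 2 the log2 fold change was -0.012 (adjusted p = 0.905).

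In the gene order of the GRCr8 annotation, Kcnj11 and Abcc8 are adjacent, with 0 genes between them, and so are Kcnj8 and Abcc9. Signals of different genes are not comparable as levels, so only the change in their difference is given. The log2 value of Kcnj11 minus that of Abcc8 was -0.58 to -0.31 in RS arrays, against -1.01 to -0.64 in RR arrays, with no overlap. The difference between the lines in this quantity was 0.41 (exact two-sided permutation p = 0.00216, adjusted p = 0.00289 by the Benjamini-Hochberg method over 4 pairs of potassium channel genes that were chosen with their values known). It varied with the probe set of Kcnj11. For the set 1387698_at the difference was 0.58, also without overlap, but for the set 1369782_a_at it was 0.08, with values of -3.68 to -2.79 in RS arrays and -3.22 to -2.96 in RR arrays that overlapped; these 2 sets were not tested against Abcc8.

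The other KATP pair was dim in both lines. Abcc9, which encodes the receptor SUR2 of heart and smooth muscle KATP channels, had signals of 24.7, 30.4 and 36.6 in RS cells and 8.74, 19.5 and 27.2 in RR cells, with a log2 fold change of 0.40 (interval 0.17 to 0.63, adjusted p = 0.0101). The signals overlapped through RR replicates 2 and 3, the call was lost with RR replicates 1 to 3 alone (adjusted p = 0.0737), and its 2 other probe sets had mean signals under 6 in both lines and were not called. Kcnj8, which encodes the pore subunit Kir6.1, had signals of 20.9, 31.6 and 40.96 in RS cells and 12.02, 21.1 and 28.5 in RR cells, with overlap (log2 fold change 0.31, interval -0.04 to 0.67, adjusted p = 0.161).

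**Figure D2:**
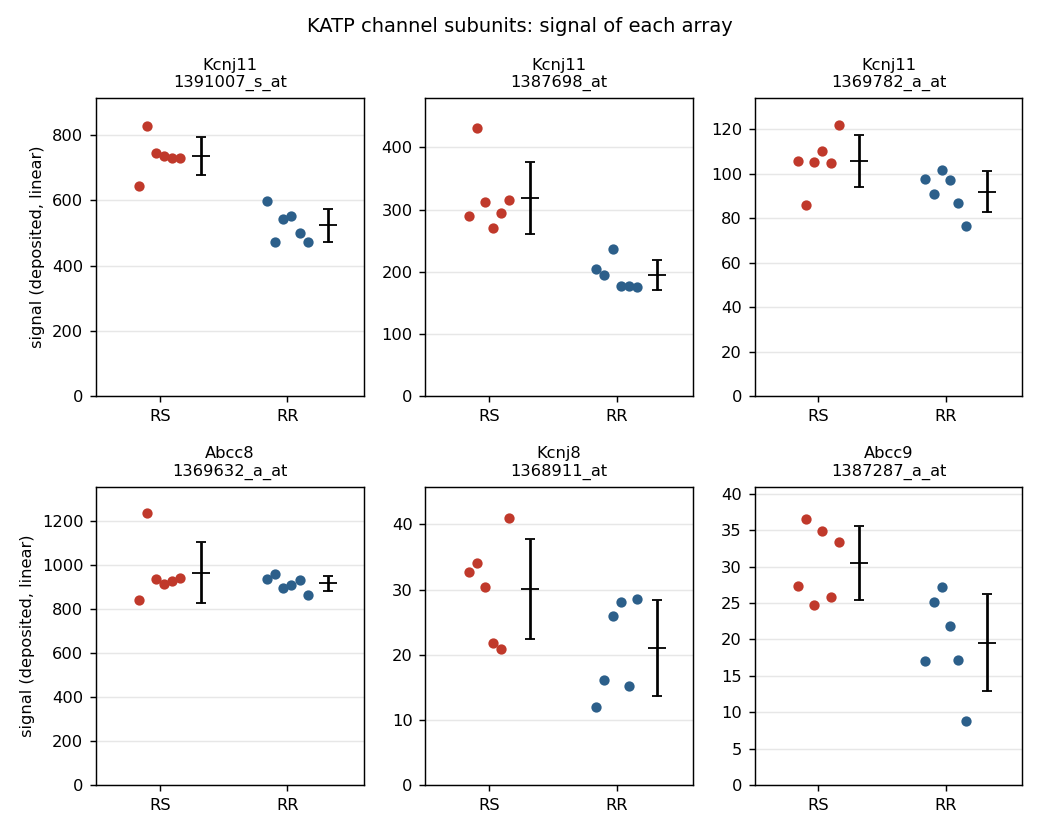
Deposited linear signal (vertical axis, from 0) of each array for the 3 probe sets of Kcnj11 and the representative sets of Abcc8, Kcnj8 and Abcc9; points are the 6 RS arrays (left) and the 6 RR arrays (right), and bars show the mean ± SD. RS and RR arrays are separate for the first and second Kcnj11 sets and overlap in the other 4 panels; RS replicate 2 stands high for Abcc8.

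The other 13 inward rectifier genes (Kcnj) had no call in either direction, where 39.2% of all genes were called. That share depends on signal: it was 50.1% of genes with a mean of at least 50 and 9.99% of the others. Here and in the families below, it was not matched for signal. Their log2 fold changes were between -0.37 and 0.43, and the smallest adjusted p among them was 0.120. The family holds the strong rectifiers that clamp the resting potential, such as Kcnj2, and the channels opened by G-protein beta-gamma subunits, Kcnj3, Kcnj5, Kcnj6 and Kcnj9. The family's mean signals reached 167 in RS cells and 171 in RR cells at most. A probe set of Kcnj3 that does not represent the gene (1388292_at, looked at after its values were seen) was lower in RS cells, at 3.22, 8.02 and 20.7 in RS cells and 13.3, 25.1 and 35.9 in RR cells (log2 fold change -0.67, adjusted p = 0.0245). The other 2 sets of Kcnj3 were not called, with log2 fold changes of -0.37 and -0.03.

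Of the 11 two-pore domain genes (Kcnk), which give background currents that are open at rest, 3 were higher in RS cells and none lower (27.3%, against 39.2% of all genes). Kcnk3, the acid-sensitive channel TASK-1, had the largest increase of the 77 genes. Its signals were 597, 667 and 713 in RS cells, against 134, 161 and 207 in RR cells. All RS arrays were far above all RR arrays, and the means were 664 ± 37.7 in RS cells and 163 ± 29.9 in RR cells (SD, n = 6 each), a ratio of 4.07 and a log2 fold change of 1.93 (interval 1.70 to 2.16, adjusted p = 2.89e-08). The second Kcnk3 set (1398313_a_at) was also higher, by 0.74 on the log2 scale (adjusted p = 0.00180). The third set (1375807_at) had means of 13.4 ± 10.3 in RS cells and 18.8 ± 12.3 in RR cells and was not called (log2 fold change -0.23).

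Kcnk9 encodes TASK-3, the channel closest to TASK-1 and able to join it in a heteromer. Its signals were 41.9, 52.3 and 55.6 in RS cells, against 24.9, 29.8 and 34.4 in RR cells, without overlap (log2 fold change 0.52, interval 0.36 to 0.68, adjusted p = 1.05e-04). By their representative sets, the log2 value of Kcnk3 minus that of Kcnk9 differed by 1.41 between the lines (exact two-sided permutation p = 0.00216, adjusted p = 0.00289 over the 4 pairs). These sets thus changed unequally on this scale. The other Kcnk3 sets, with log2 fold changes of 0.74 and -0.23, were not set against Kcnk9. Kcnk12 (THIK-2), named after its values were seen, was dim, at 14.2, 27.1 and 62.5 in RS cells and 5.85, 11.3 and 20.4 in RR cells. Its arrays overlapped and its call was near the threshold (log2 fold change 0.73, adjusted p = 0.0311, between 0.0599 and 0.0681 when 1 of RS replicates 2, 5 and 6 or RR replicates 1, 4 and 6 was left out, 0.201 with RR replicates 1 to 3 alone and 0.0863 with RR replicates 4 to 6 alone). The other 8 genes of the family had log2 fold changes between -0.39 and 0.14, with adjusted p of 0.0567 or more.

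A second probe set of Kcnk6 behaved differently from the one that represents the gene. Kcnk6 encodes TWIK-2, a weakly inwardly rectifying background channel. In the set 1387264_at, singled out after its values were seen, the signals were 2.62, 5.71 and 8.33 in RS cells, against 44.5, 58.6 and 68.3 in RR cells. No RS array reached the lowest RR array, and the log2 fold change was -1.78 (interval -2.02 to -1.54, adjusted p = 7.81e-08). The RS signals were near the floor of the array, where the size of a change is poorly set, and detection calls were not used. The representative set 1370776_a_at had signals of 80.5, 97.9 and 109 in RS cells and 79.98, 95.9 and 117 in RR cells and a log2 fold change of -0.04 (interval -0.23 to 0.14, adjusted p = 0.744). Which transcript regions the sets of Kcnk6 report was not analysed here.

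**Figure D3:**
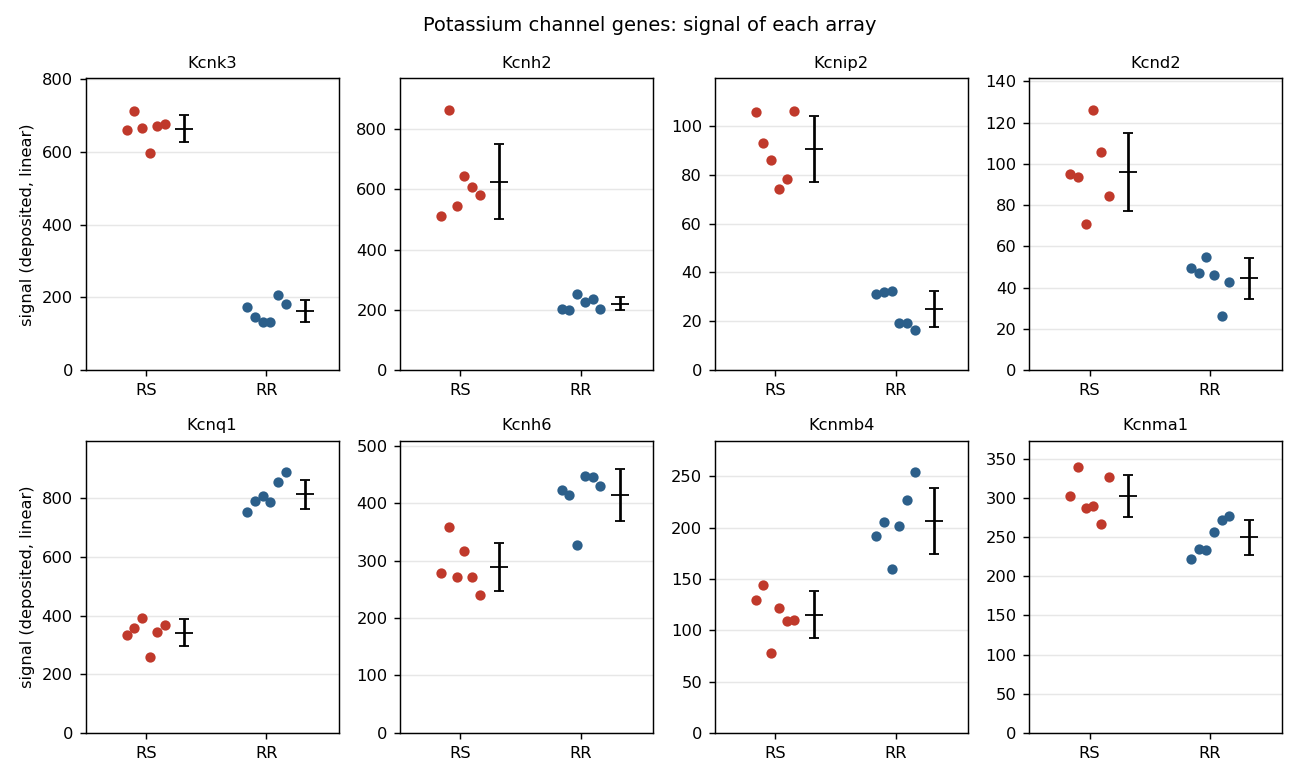
Deposited linear signal (vertical axis, from 0) of each array for 8 potassium channel genes by their representative probe sets; points are the 6 RS arrays (left) and the 6 RR arrays (right), and bars show the mean ± SD. RS arrays lie above all RR arrays for Kcnk3, Kcnh2, Kcnip2 and Kcnd2 and below them for Kcnq1 and Kcnmb4, while the lines overlap for Kcnh6 and Kcnma1.

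The 31 voltage-gated pore (alpha) subunit genes included 7 that were higher in RS cells and 2 that were lower (29.0%, against 39.2% of all genes). The ether-à-go-go family (Kcnh) moved in both directions. Kcnh2 encodes ERG1, a channel that passes most of its current while the membrane repolarises. Its signals were 510.2, 595 and 863 in RS cells, against 200.5, 214 and 253 in RR cells, and the lines were well apart. The means were 625 ± 125 in RS cells and 220.1 ± 22.1 in RR cells (SD, n = 6 each), a log2 fold change of 1.41 (interval 1.15 to 1.68, adjusted p = 1.13e-06).

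Kcnh6 encodes ERG2, a close relative of ERG1 that can join it in a channel, and was named after its values were seen. It was lower in RS cells, at 241, 275 and 358 in RS cells and 327, 426 and 447 in RR cells (log2 fold change -0.51, interval -0.73 to -0.28, adjusted p = 0.00146). The lines overlapped only through RR replicate 3, at 327; the other 5 RR arrays were at or above 414. The log2 value of Kcnh2 minus that of Kcnh6 was 0.84 to 1.24 in RS arrays and -1.03 to -0.36 in RR arrays, a difference of 1.92 between the lines. Kcnh1 (EAG1) and Kcnh3 (ELK2), also named after their values were seen, were called higher with overlapping arrays and small changes: Kcnh1 by 0.38 on the log2 scale (adjusted p = 0.0443) and Kcnh3 by 0.27 (adjusted p = 0.0358). The Kcnh1 call was lost without any 1 of RS replicates 3, 4, 5 and 6 or RR replicates 1, 2, 3 and 6 (adjusted p up to 0.0959), with the replicate number as a block (0.0871) and with a pseudocount of 1 (0.0568). The Kcnh3 call was lost without any 1 of RS replicates 3, 5 and 6 or RR replicates 3, 4, 5 and 6 (up to 0.0797) and after median centring (0.0583). With RR replicates 1 to 3 alone and with RR replicates 4 to 6 alone, Kcnh1 (adjusted p = 0.0551 and 0.245) and Kcnh3 (0.224 and 0.0525) were not called.

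Kcnq1 encodes Kv7.1, a slowly activating channel that works with small subunits of the Kcne family in epithelia and heart. It had the largest decrease among the representative sets. Its signals were 258, 350.2 and 391 in RS cells, against 752, 799.6 and 889 in RR cells. Every RS array was below every RR array, and the means were 342 ± 45.8 in RS cells and 813 ± 50.1 in RR cells (SD, n = 6 each), a log2 fold change of -1.23 (interval -1.43 to -1.03, adjusted p = 3.69e-07). None of its possible partners Kcne1, Kcne2, Kcne3 and Kcne4 was called.

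Kcnq5, a subunit of the M current that restrains repetitive firing, is represented by a set that was not called (1391314_at, log2 fold change 0.03, interval -0.32 to 0.38). Its set 1379510_at, singled out after its values were seen, had signals of 79.2, 95.6 and 122 in RS cells and 2.70, 33.8 and 48.5 in RR cells, and was higher in RS cells (log2 fold change 1.48, interval 0.86 to 2.10, adjusted p = 0.00108). The RR signals were 48.5, 46.1 and 48.3 in RR replicates 1, 2 and 3 and 10.1, 21.4 and 2.70 in RR replicates 4, 5 and 6, all below the lowest RS array. These are the RR arrays that stood apart in Mafa, Ins2 and other genes.

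Kcnd2 encodes Kv4.2, a pore of fast inactivating (A-type) currents, and the calcium-binding proteins of the Kcnip genes join Kv4 pores and bring them to the cell surface. Kcnd2 had signals of 70.7, 94.3 and 126 in RS cells, against 26.2, 46.8 and 55.1 in RR cells, without overlap (log2 fold change 0.87, interval 0.58 to 1.15, adjusted p = 1.61e-04). Its second set (1387476_at) was higher too, by 0.76 (adjusted p = 3.96e-05). Kcnip2 (KChIP2) had signals of 74.1, 89.7 and 106 in RS cells and 16.6, 25.2 and 32.6 in RR cells, and the lines were well apart. Its means were 90.6 ± 13.5 in RS cells and 25.1 ± 7.48 in RR cells (SD, n = 6 each), a log2 fold change of 1.37 (interval 1.12 to 1.62, adjusted p = 8.94e-07). The other Kcnip2 sets were dimmer and not called, 1368639_at at 0.14 on the log2 scale (adjusted p = 0.692) and 1370773_a_at at 0.35 (adjusted p = 0.171). The RR signals of Kcnip2 were 31.1, 31.96 and 32.6 in RR replicates 1, 2 and 3 and 19.2, 19.2 and 16.6 in RR replicates 4, 5 and 6. The same arrays were split in 5 of the beta cell markers, 4 in the direction of Kcnip2 and 1, Iapp, in the opposite direction. The log2 fold change of Kcnip2 was 1.18 with RR replicates 1 to 3 alone and 1.57 with RR replicates 4 to 6 alone, and that of Kcnd2 was 0.75 and 0.98; the calls remained.

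Kcnip3 encodes KChIP3, also known as DREAM, a Kv4 partner that can also bind DNA. Its signals were 579, 618 and 649.6 in RS cells and 340.1, 453 and 561 in RR cells, with every RS array above every RR array (log2 fold change 0.43, interval 0.21 to 0.65, adjusted p = 0.00387), and its second set was higher by 0.54 (adjusted p = 0.0368). Kcna4, which encodes the A-type pore Kv1.4, had signals of 43.8, 47.5 and 60.03 in RS cells and 30.4, 33.4 and 37.4 in RR cells, also without overlap (log2 fold change 0.37, interval 0.21 to 0.53, adjusted p = 0.00129). The other Kv4 partners of the family, Kcnip1 and Kcnip4, were not called, with log2 fold changes of 0.23 and -0.03. The other Kv4 pores, Kcnd1 and Kcnd3, were not called; Kcnd1 had a value of -0.37 on the log2 scale (adjusted p = 0.0743) and Kcnd3 of 0.02 (adjusted p = 0.960). By their representative sets, the log2 value of Kcnip2 minus that of Kcnd2 differed by 0.51 between the lines (exact two-sided permutation p = 0.0238, adjusted p = 0.0238 over the 4 pairs). The dimmer sets of Kcnip2 were not set against Kcnd2.

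The promoters of Kcnd2, Kcnip2 and Kcnip3, a pore and 2 accessory subunits of Kv4 channels that were called in the same direction, are printed for that reason. They are RefSeq sequences of the GRCr8 build, 5′ to 3′, from 250 bases before to 50 bases after the annotated start. Capitals mark matches to an E-box (CANNTG) or a GC box (GGGCGG) on either strand.
Kcnd2 (chr4:50742235-50742534, plus strand): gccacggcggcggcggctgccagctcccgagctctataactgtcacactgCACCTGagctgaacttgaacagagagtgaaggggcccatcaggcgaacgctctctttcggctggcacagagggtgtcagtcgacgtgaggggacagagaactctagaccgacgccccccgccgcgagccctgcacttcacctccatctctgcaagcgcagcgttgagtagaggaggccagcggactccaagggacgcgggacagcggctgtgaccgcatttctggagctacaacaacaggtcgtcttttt
Kcnip2 (chr1:254613849-254614148, minus strand): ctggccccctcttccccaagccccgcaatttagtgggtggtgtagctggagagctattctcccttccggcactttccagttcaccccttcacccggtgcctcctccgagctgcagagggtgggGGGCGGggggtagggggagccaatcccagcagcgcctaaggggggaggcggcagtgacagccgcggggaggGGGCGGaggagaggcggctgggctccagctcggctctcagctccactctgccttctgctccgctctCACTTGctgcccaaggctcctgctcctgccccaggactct
Kcnip3 (chr3:135195361-135195660, minus strand): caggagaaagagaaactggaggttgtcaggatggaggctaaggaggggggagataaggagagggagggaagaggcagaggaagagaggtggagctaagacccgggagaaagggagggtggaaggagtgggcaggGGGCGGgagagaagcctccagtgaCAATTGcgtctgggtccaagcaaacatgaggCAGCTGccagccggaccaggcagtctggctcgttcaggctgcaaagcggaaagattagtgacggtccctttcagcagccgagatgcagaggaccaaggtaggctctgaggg

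Promoter windows of this kind were at hand for 53 of the 77 genes. Those of Kcnj11, Abcc8, Kcnk3, Kcnh2 and Kcnq1 were not among them. The letters searched on both strands, counting a promoter once whatever the number or overlap of its matches, were the E-box CANNTG, the GC box GGGCGG, the antioxidant response element core TGACNNNGC, the homeodomain core TAATTA, the forkhead core TGTTTAC and the cyclic AMP response element TGACGTCA. An E-box match was in 36 of the 53 windows (67.9%), against 71.6% of 27457 windows of the same length, and a GC box in 31 (58.5%), against 34.9%. The median GC content was 62.3% in the potassium channel windows and 52.3% over all windows. The antioxidant element core was matched in 7 windows (13.2%), against 12.2% of all; the 7 belong to genes that were not called, and 0 of 9 windows of genes higher in RS cells and 0 of 2 of genes lower held it. The homeodomain core was in 2 windows, against 5.35% of all, and the forkhead core and the cyclic AMP element were in 0 of the 53, against 3.76% and 1.91% of all.

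Kcns3 encodes Kv9.3, an electrically silent subunit that modifies Kv2 pores. Its signals were 40.1, 48.6 and 56.95 in RS cells, against 12.7, 20.7 and 28.1 in RR cells, without overlap (log2 fold change 0.79, interval 0.57 to 1.01, adjusted p = 3.30e-05). Kcnb2, the Kv2.2 pore, was named after its values were seen and was dim in RR cells. It had 22.5, 31.03 and 39.8 in RS cells and 5.34, 6.38 and 28.2 in RR cells (log2 fold change 0.85, interval 0.46 to 1.24, adjusted p = 0.00207), and RR replicate 1 alone, at 28.2, made the lines overlap. The 22 pore genes of the voltage-gated families that were not called had log2 fold changes between -0.38 and 0.44 and adjusted p of 0.0743 or more.

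Of the 11 accessory subunit genes of voltage-gated channels (Kcnab, Kcne and Kcnip), Kcnip2 and Kcnip3 were the ones called (18.2%, against 39.2% of all genes). The other 9 had log2 fold changes between -0.17 and 0.52, and their smallest adjusted p was 0.230. In Kcnab2, a cytoplasmic beta subunit of Kv1 channels with an oxidoreductase fold, a set other than the representative one was lower in RS cells: 1390674_at had 15.8, 26.1 and 33.3 in RS cells and 38.5, 59.6 and 73.7 in RR cells, without overlap (log2 fold change -0.87, adjusted p = 2.15e-04). The other 3 sets of Kcnab2 were not called, with log2 fold changes between -0.14 and -0.06. This set was singled out after its values were seen.

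Among the 7 calcium- and sodium-activated genes, 2 were higher in RS cells and 1 lower (42.9%, against 39.2% of all genes), all 3 of them subunits of the large-conductance (BK) channel. Kcnmb4 encodes the beta-4 subunit, which slows BK gating and is best known from neurons. Its signals were 77.7, 116 and 144 in RS cells, against 159.9, 203 and 254 in RR cells, with every RS array below every RR array. The means were 115 ± 22.5 in RS cells and 207 ± 32.03 in RR cells (SD, n = 6 each), a log2 fold change of -0.77 (interval -1.06 to -0.49, adjusted p = 3.72e-04).

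The next BK subunits were named after their values were seen. Kcnmb1, the beta-1 subunit of smooth muscle, was dim, at 25.4, 40.8 and 51.5 in RS cells and 10.1, 10.5 and 35.2 in RR cells, and was called higher with 1 RR array, replicate 6, inside the RS range (log2 fold change 0.80, adjusted p = 0.00773, and 0.0874 with RR replicates 4 to 6 alone). Kcnma1, the BK pore, had 266, 296 and 339 in RS cells and 222, 246 and 277 in RR cells. The lines overlapped and the change was small (log2 fold change 0.25, interval 0.07 to 0.43, adjusted p = 0.0310). Its call was lost when 1 of 6 arrays (RS replicates 1, 2 and 6 and RR replicates 1, 2 and 3) was left out (adjusted p up to 0.0697), after median centring (0.0634), with the replicate number as a block (0.0662) and with RR replicates 4 to 6 alone (0.350, log2 fold change 0.13). Its other sets were dimmer and not called, 1369334_at at -0.31 (adjusted p = 0.425) and 1370472_a_at at 0.05 on the log2 scale. The small-conductance genes Kcnn1 and Kcnn3, the intermediate-conductance gene Kcnn4 and the sodium-activated gene Kcnt1 were not called (log2 fold changes 0.00 to 0.16).

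**Figure D4:**
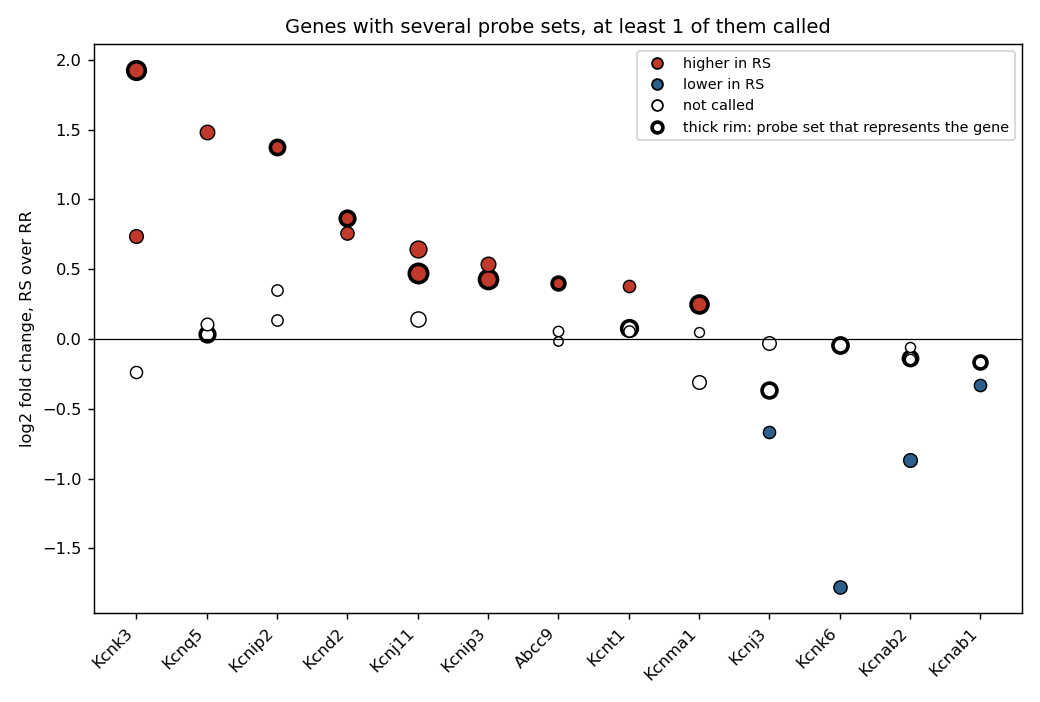
Log2 fold change (RS over RR, vertical axis) of every probe set of the 13 potassium channel genes that have several probe sets and at least 1 called; each point is a probe set, its size grows with the mean signal, and a thick rim marks the set that represents the gene. Red sets were higher in RS cells, blue sets lower and open sets not called; no gene has both red and blue sets, and the called sets of Kcnq5 and Kcnk6 lie far from their representative sets.

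Of the 32 genes with several probe sets, 2 had every set called (Kcnd2 and Kcnip3), 11 had some called and 19 none. In no gene were sets called in opposite directions. Another count is of genes with a call only in a set that does not represent them, which were 6: Kcnk6, Kcnab2, Kcnj3 and Kcnab1 with a lower set, and Kcnq5 and Kcnt1 with a higher one. The sets of Kcnab1 (1378738_at, log2 fold change -0.33, adjusted p = 0.0386) and Kcnt1 (1395102_at, 0.38, adjusted p = 0.0184), named after their values were seen, had overlapping arrays. Taking for each gene the set with the smallest p in place of the brightest one gave 18 genes higher and 7 lower. This choice favours calls in any gene with several sets. The share of all genes called under it was not computed, so these counts have no background.

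The called genes were also set beside their neighbours on the chromosome, by the gene order of GRCr8 and the median log2 fold change of the 50 nearest genes whose mean signal reached 100. The median over all 8657 such genes was 0.03. Kcnmb4 lay in a stretch that was lower as a whole: 44 of its 50 neighbours were lower and 2 higher in RS cells, their median was -0.85, and Kcnmb4 itself was at -0.77. Around Kcnq1, 37 neighbours were lower and 5 higher (median -0.44), and Kcnq1 at -1.23 was further down than that median. The neighbours of Kcnip2 (median 0.44, 35 higher and 3 lower) and of Kcnh2 (median 0.40, 36 higher and 3 lower) were mostly on the side of the channel gene.

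Other called genes stood out from their surroundings. The neighbours of Kcnk3 had a median of 0.15, those of Kcnj11 0.06 and those of Kcnd2 0.05. For Kcnk9, Kcnip3, Kcna4, Kcnk12 and Kcnh6 the neighbour median had the opposite sign to the gene, and for the other 14 of the 19 called genes it had the same sign. The share with the same sign over all genes was not computed, so this count has no background. Some of the matching medians were near 0, such as 0.01 for Kcnh1 (13 neighbours higher and 16 lower) and 0.04 for Kcnh3. Some channel genes that were not called lay in stretches where most neighbours were called. Kcnc2, a Kv3 pore, was at 0.44 on the log2 scale (interval 0.02 to 0.86, adjusted p = 0.102). Of its 50 neighbours 43 were lower (median -0.92). Kcnc2 was dim, with means of 13.4 in RS cells and 6.41 in RR cells, and none of its other sets was called. Kcne4 was at 0.07 (interval -0.16 to 0.29), where 38 neighbours were lower (median -0.43). Kcnd3, also dim, was at 0.02, where 36 neighbours were higher (median 0.43). The Kcnd3 interval, -0.51 to 0.56, contains that median, so no difference from its neighbours is shown. These 3 genes were chosen after their values were seen.

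**Figure D5:**
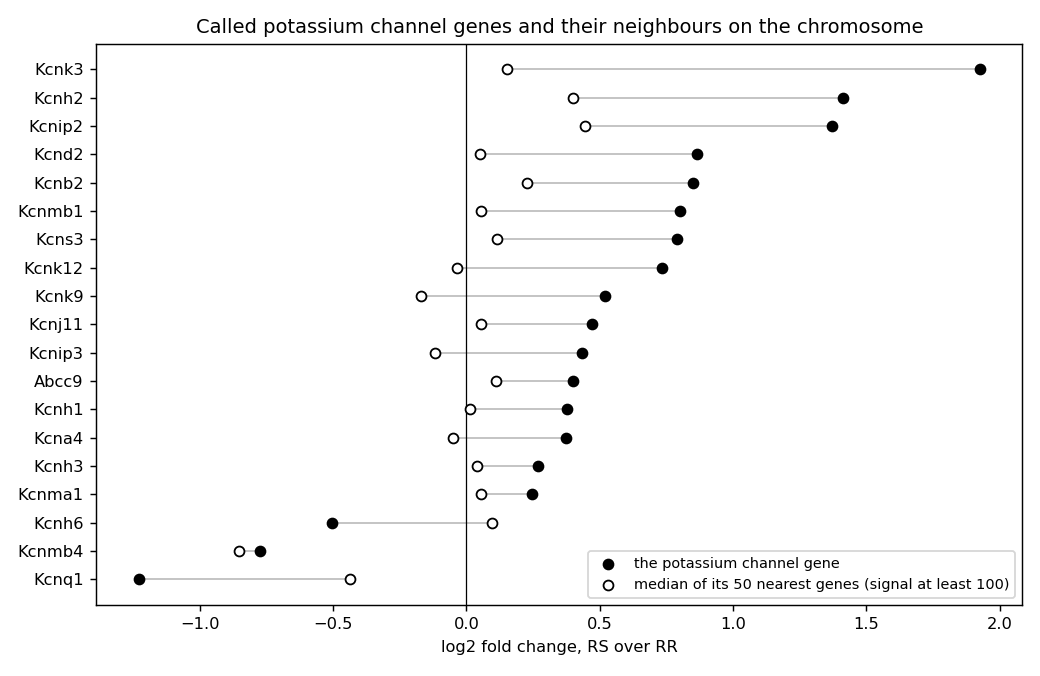
Log2 fold change (RS over RR, horizontal axis) of the 19 called potassium channel genes (filled points) and the median of the 50 nearest genes whose mean signal reached 100 (open points), joined by a line for each gene. Kcnmb4 lies beside its neighbours' median, the medians of Kcnq1, Kcnip2 and Kcnh2 are shifted to the side of the gene, and that of Kcnk3 is close to 0.

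Genes that work with these channels were counted from a list of other partners, regulators and stimulus-secretion genes, of which 36 were measured; 8 of them had RR replicates 1 to 3 apart from RR replicates 4 to 6. Of these, 8 were higher and 10 lower in RS cells (50% called, against 39.2% of all genes), and their median log2 fold change was -0.06. Among 18 channel partners, 7 were lower and 1 higher (44.4% called). Ank2, an ankyrin that anchors Kir6.2, had a signal of 476 ± 23.6 in RS cells and 775 ± 73.9 in RR cells (log2 fold change -0.69, adjusted p = 4.52e-06). Dpp6, an auxiliary subunit of Kv4 channels, had 326 ± 41.6 in RS cells and 453 ± 30.05 in RR cells (-0.47, adjusted p = 7.41e-04), so it was lower where Kcnd2 and Kcnip2 were higher. Amigo1, a partner of Kv2 channels, was the one that was higher (0.46, adjusted p = 8.68e-04). The kinase Sgk1, which raises the surface level of several channels, was lower (-0.68, adjusted p = 4.25e-04), as were Hcn3, Gnb2, Gng2 and Snap25, with log2 fold changes between -0.41 and -0.19.

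Of 5 transcription factors known to act on channel genes, Pdx1 (1.09) and Neurod1 (0.90) were higher and Hnf4a was lower (-3.13, adjusted p = 2.59e-09). Hnf4a had a signal of 61.1 ± 14.3 in RS cells and 643 ± 53.5 in RR cells. Among 13 genes of stimulus-secretion coupling, 5 were higher and 2 were lower (53.8%, against 39.2% of all genes). The pores of L-type calcium channels, which open when KATP channels close, were both higher: Cacna1c had 333 ± 20.4 in RS cells and 148 ± 19.6 in RR cells (1.09, adjusted p = 4.08e-07), and Cacna1d was higher by 0.34 on the log2 scale with overlapping arrays (adjusted p = 0.0303). The auxiliary subunit Cacnb2 (0.68), the glycolytic enzyme Pfkm (0.62) and the insulin gene Ins2 (1.30) were higher, and the cation channel Trpm4 (-0.60) and Slc2a2 (-0.51, at the floor of the array in RS cells) were lower.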

How the data were processed

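The probe sets were measured on 12 Affymetrix rat expression arrays, 6 of CRI-G1-RS and 6 of CRI-G1-RR cells. The authors deposited intensities on a linear scale, 1 per probe set and array, made with GCOS 1.4 according to the submitters' processing notes; the genome build used for annotation is not given in the sources used here. In the study's methods the normalization is robust multi-chip averaging with log2 values, so the deposited signals come from another step. They had been scaled to a common trimmed mean, which can leave differences in the shape of the distributions. Quantile normalization was therefore applied, log2(signal + 16) was computed, and limma 3.58.1 in R 4.3.3 was fitted with line as the single factor. Benjamini-Hochberg adjustment covered the 31099 probe sets without a signal filter. The design had allowed for log2 values, with this treatment stated for linear ones. Signals, means and SDs in the text are deposited values before quantile normalization, and whether arrays overlap was read from them.

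By the platform annotation 20832 probe sets have a single symbol, 436 have several and 9831 have none. The brightest probe set over the 12 arrays stands for its gene. The rule for genes described with values took the 4 KATP subunits, up to 14 called genes of largest change in each direction whose arrays do not overlap, and genes with sets called in opposite directions. Other potassium channel genes with a call were named after their values were seen and are marked so. Some genes that were not called are named without this mark. The members, gene lists, pairs and motifs were chosen with earlier results of these data known. Single values were also tested by an exact two-sided permutation test of 6 arrays against 6. Neighbours were taken by gene order in the GRCr8 annotation, to which all 77 genes were matched, and promoter windows from RefSeq for the same build.

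The fit was tested on simulated data, where 48 of 100 changes of 1.5-fold and 91 of 100 of 2-fold were recovered. A set that was not called can thus still differ between the lines. The simulation changed far fewer of the 31099 sets than were called in the data, so its recovery need not hold here. The number of arrays limits the precision, and neither detection calls nor scan dates entered. The labels give different passages of each line, so p-values measure the spread between passages of the same cells. The alternatives were other scalings, pseudocounts, a signal filter, leaving out sets that can match several transcripts, the replicate block, an intensity trend, array weights, another set per gene, leaving out each array and, added after the data were seen, RR replicates 1 to 3 or 4 to 6 alone.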

Additional observations from a re-analysis of the deposited data

Results flagged for a closer look

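In 62 groups of 6 arrays (the named genes and the called probe sets, each line apart), 4 had 1 array far from the other 5 by Dixon's criterion, which chance meets in about 1 in 20 groups. RS replicate 2 was the highest RS array for Abcc8, with a signal of 1233 where the next highest was 940.0, and for the Kcnj11 set 1387698_at, with 430.7 where the next was 315. For Kcnb2, RR replicate 1 was at 28.2 and the next RR array at 12.5. For Kcnh6, RR replicate 3 was the lowest RR array, at 326.7, and the next was at 414.4.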

How the results depend on the processing

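The counts of potassium channel genes and probe sets, KATP subunits, described genes and partner genes stayed within 1.5 times their values in 53 of 59 comparisons with other settings. Testing only probe sets whose mean signal reached 50, which leaves fewer sets to adjust over, gave 9 genes higher and 5 lower, 17 potassium channel sets called in place of 29, and 1 KATP subunit called (Kcnj11; Abcc9 was not tested). Of the 29 sets, 14 had a lower signal and were not tested; the other 15 are the count to set beside the 17, with 46.4% of all sets at that signal called before and 51.3% with the filter. Array weights gave 5 genes lower, and the set with the smallest p in place of the brightest gave 7. The labels do not say whether the replicate number marks the pairs in which samples were collected. Deviations of same-numbered arrays from their line's mean correlated between -0.063 and 0.077, and 1 of 6 RS arrays correlated best with its own number. This shows no large effect shared by same-numbered arrays, but cannot show whether they are the pairs. With the replicate number as a block, 14 genes were higher and 3 lower, 25 sets and 2 KATP subunits were called, 12 of the 14 described genes and 14 partner genes; Kcnh1 (adjusted p = 0.0871) and Kcnma1 (0.0662) lost their calls. Chosen after seeing the data, RR replicates 1 to 3 alone gave 1 KATP subunit called (Kcnj11). With these or with RR replicates 4 to 6 alone, 9 of 42 gene values lost their call (Abcc9, Kcnh1, Kcnh3, Kcnk12, Kcnma1 and Kcnmb1). With 1 array left out, 12 to 16 genes were higher, 3 to 4 lower and 23 to 29 sets called. Of the single-gene values, 197 of 202 under other settings and 224 of 252 with 1 array left out kept their direction and call; the losses were of Kcnh1, Kcnh3, Kcnma1 and Kcnk12, and Abcc8, not called, ranged from -0.012 (without RS replicate 2, a reversed sign) to 0.10 with 1 array left out. The causes were not tested.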
